A study of Homo sapiens with 5 samples.

Results

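CSF1R and the DNA around it were examined for DNase I peaks in 5 human lines grown from B cell tumours. Members were all listed peaks that overlap 149.38 to 149.52 Mb of chromosome 5 (hg18), a window of 140 kb. CSF1R lies on the minus strand at about 149.413 to 149.473 Mb, so that positions above 149.446 Mb lead towards its upstream promoters. The window held 1 of the 59212 regions obtained by joining the overlapping peaks of all lines, and the gene span held 0. That single region lay in the flank below the gene, in the L1236 list.

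L1236, L428 and L591 are lines from Hodgkin lymphoma, and Reh (pro-B lymphoblastic leukaemia) and Namalwa (Burkitt lymphoma) form the non-Hodgkin group of the labels. All were at passage 7, and each gave 1 library and 1 peak list, so the 3 and 2 lines are the replicates of their groups. DNase I, which cuts accessible DNA, was used at 12 U/ml on nuclei of Namalwa and L591 and at 6 U/ml on those of the other lines. The lists hold no read counts, the depth behind them is unknown, and a place without a peak is one where none was listed, which does not show closed chromatin. Lists held 5760 peaks (Namalwa) to 27925 peaks (Reh) on chromosomes 1 to 22 and X. Cell identity was not checked here, since the lists carry no expression.

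CSF1R encodes the receptor tyrosine kinase that binds the cytokines CSF1 and IL-34 and on which macrophages depend for survival. In myeloid cells it is transcribed from a proximal promoter bound by PU.1, RUNX and C/EBP factors, together with an enhancer in an early intron, and a distal promoter serves placental cells. B cells normally keep the gene silent. In Hodgkin lymphoma cells, transcripts are known to start in a long terminal repeat (LTR), a piece of an ancient retrovirus-like element, which lies upstream of the myeloid promoter and below the placental one. Whether the deposited lists hold an accessible site at these elements was the question asked of them.

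The RefSeq table of promoters holds 2 starts for CSF1R, 26811 bases apart in GRCh38.p14, and the bases before each are shown because promoters are the regulatory DNA in question here. Each run is 250 bases read 5′ to 3′ on the minus strand and ending just before the start. Capitals mark matches, on either strand, to TGTGGT (RUNX), GAGGAA (PU.1 and other ETS factors) and TGANTCA (AP-1), with N for any base. The LTR is not in that table, and its sequence is not shown.
Proximal, chr5:150086555-150086804: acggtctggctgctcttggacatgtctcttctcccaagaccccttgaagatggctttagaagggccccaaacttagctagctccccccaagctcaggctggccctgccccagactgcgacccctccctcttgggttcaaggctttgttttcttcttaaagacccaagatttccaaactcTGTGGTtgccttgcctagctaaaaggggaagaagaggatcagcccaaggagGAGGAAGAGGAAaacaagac
Distal, chr5:150113366-150113615: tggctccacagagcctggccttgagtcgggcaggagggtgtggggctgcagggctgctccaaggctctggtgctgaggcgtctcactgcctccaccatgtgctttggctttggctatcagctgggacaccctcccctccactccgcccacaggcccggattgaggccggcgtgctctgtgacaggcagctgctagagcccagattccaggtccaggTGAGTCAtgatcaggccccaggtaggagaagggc

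The proximal sequence held 1 match to TGTGGT, beginning 71 bases before the start, a motif found in 11.0% of 35116 promoter windows of the same length. It also held 2 adjoining matches to GAGGAA, 20 and 14 bases before the start, a motif found in 23.6% of windows. The distal sequence held 1 match to TGANTCA, 34 bases before the start, where 6.57% of windows have this motif. The G and C share was 53.2% in the proximal and 64.4% in the distal sequence, against a median of 58.0% over all windows. The matches describe these letters only, and the motifs were picked after the sequences had been read. A C/EBP motif was not searched for, although C/EBP factors are named above for the proximal promoter. These coordinates belong to GRCh38.p14 and were not set against the hg18 peaks base by base.

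No list had a peak in the upstream segment, the 27 kb from 149.446 to 149.473 Mb. The rule gives its lower edge, above which sites lie toward the upstream promoters, and the gene end was taken as its upper edge. Each of the 5 lists had 0 peaks in this segment, so that there was no difference between the Hodgkin and non-Hodgkin lines to test. The part of the gene below 149.446 Mb also held 0 peaks in each of the 5 lists. Bases before a start at the upper gene end fall outside the segment, in the flank above the gene. Within the window, that flank held 0 peaks in each list too. The empty stretch common to the 5 lists reached from 23.2 kb below the gene to 48.0 kb above it. It therefore takes in the myeloid promoter, the intronic enhancer, the LTR and the distal promoter as their places are known from background, although none was placed on hg18 here.

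An empty stretch of this size was common in these lists. A stretch as long as the upstream segment held no peak in 87.6% of all placements in the L1236 list, 86.4% for L428, 84.3% for L591, 86.7% for Reh and 96.0% for Namalwa. A stretch as long as the gene, 60 kb, was empty in 78.1%, 75.4%, 72.5%, 76.9% and 92.0% of placements in the same order of lines. A stretch of 140 kb, the length of the window, was empty in 63.3%, 58.7%, 56.0%, 62.8% and 84.6%. All 5 lists at once were empty in 74.3% (27 kb), 58.8% (60 kb) and 40.3% (140 kb) of placements. The 3 Hodgkin lists at once were empty in 77.7%, 63.0% and 44.2%, and both non-Hodgkin lists at once in 86.7%, 76.9% and 62.8%. Against placements over whole chromosomes, the absence of a peak over CSF1R is therefore common. No background of like local peak density was drawn, although every list was denser around CSF1R than over chromosome 5, as given below. Placements were counted over whole chromosomes between the first and last peak, with genes, deserts and unsequenced stretches alike.

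**Figure D1:**
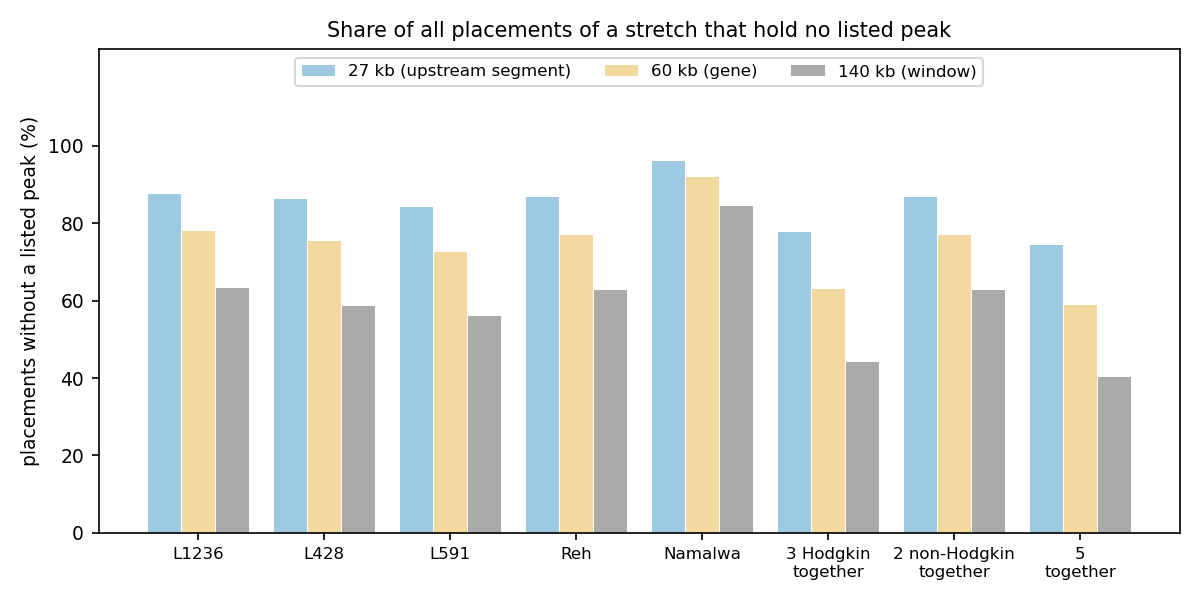
Bars give the percentage of all placements of a stretch (y axis, from 0) that hold no listed peak, for stretches as long as the upstream segment (27 kb), the gene (60 kb) and the window (140 kb), in each line and in sets of lines at once. For the gene length, bars run from 58.8% for the 5 lines at once to 92.0% in Namalwa.

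The 1 peak in the window ranked low in its list by area and by width, but near the middle by score per bp. It spanned 149389581 to 149389750 on chromosome 5 (hg18), 170 bp in the L1236 list, and ended 23.2 kb below the lower end of CSF1R, beyond the 3′ end of the gene, whose ends the rule gives to about 1 kb. Its deposited score, the authors' peak area, was 3336, at percentile 14.0 of the L1236 list, which means that 14.0% of peaks there scored as low or lower. By width it stood at percentile 10.3, and by score per bp at 51.5. L428, L591, Reh and Namalwa had no peak there, and of all 59212 joined regions 19.8% were likewise found in L1236 alone. The L1236 list is also the only one without the mark qcTrimmed, and whether that plays a part was not tested. The window thus held 1, 0 and 0 peaks in the Hodgkin lines L1236, L428 and L591 and 0 and 0 in Reh and Namalwa, means of 0.333 and 0 (difference 0.333). By exact permutation of the lines over 10 splits, two-sided, p = 1.0, a value that any lone peak in a Hodgkin line must give, so the test says nothing of the groups. The covered length was 170 bp in L1236 and 0 bp in the other lines.

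Just outside the other edge of the window, L1236 had a further peak of its own at 149521031 to 149521320, 48.0 kb upstream of the gene and at percentile 33.2. These L1236 peaks on either side bounded the empty stretch around CSF1R in the 5 lists together, 131 kb long. In RefSeq, the protein-coding gene next to CSF1R on its lower side is HMGXB3, and the one on its upper side is PDGFRB, which encodes a platelet-derived growth factor receptor of the same kinase class. No hg18 annotation was used here, so neither peak was assigned to a gene.

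The peak-free stretch that holds CSF1R was longer in the other lines. It measured 489 kb in Namalwa, 356 kb in Reh, 350 kb in L591 and 313 kb in L428, against 131 kb in L1236. On the lower side, the nearest peak ended 52.4 kb from the gene in L428 and L591, 52.3 kb in Reh and 92.4 kb in Namalwa. On the upstream side, the nearest peak began 336 kb from the gene in Namalwa, 244 kb in Reh, 237 kb in L591 and 200 kb in L428. The Hodgkin lines L428 and L591 were closer to Reh than to L1236 in this measure. Stretches at least as long made up 17.2% of all gaps between peaks of L1236, 9.31% of those of L428, 6.34% for L591, 5.85% for Reh and 20.3% for Namalwa. Because long gaps cover most of the genome, they held 84.2%, 63.2%, 56.7%, 64.8% and 84.7% of bases in the same order.

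**Figure D2:**
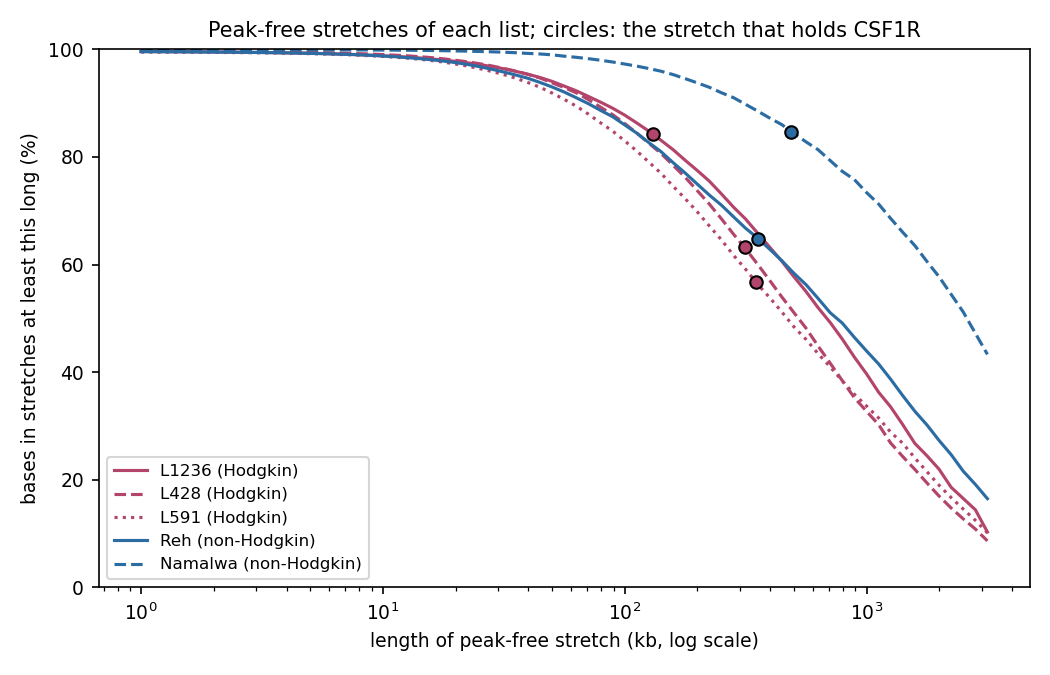
Curves give, for each line, the percentage of bases (y axis) that lie in peak-free stretches at least as long as the length on the x axis (kb, log scale), and circles mark the stretch that holds CSF1R. The circles lie between 56.7% in L591 and 84.7% in Namalwa, so most bases of each list lay in stretches at least as long.

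Accessible sites were listed on both sides of this stretch, many of them in several lines. Within 300 kb on each side of the window there were 19 regions, against 1 in the window. Of these 20 regions, 9 had peaks in at least 2 lines and 7 in at least 4, that is 45.0% and 35.0%, where 37.1% and 10.7% of all joined regions did. None of the 20 had peaks in the 3 Hodgkin lines alone, a pattern of 4.33% of all regions, and none in Reh and Namalwa alone (1.04%). With the flanks included, a stretch of 0.740 Mb held 3 peaks of Namalwa, 12 of Reh, 11 of L1236 and 13 each of L428 and L591. Per Mb this came to 4.05 in Namalwa, 16.2 in Reh, 14.9 in L1236 and 17.6 in both L428 and L591. Over chromosome 5, from first to last peak, the lists held 1.19, 6.02, 7.83, 7.50 and 8.30 peaks per Mb in that order. Whether the empty stretch is unusual for so dense a neighbourhood was not tested.

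**Figure D3:**
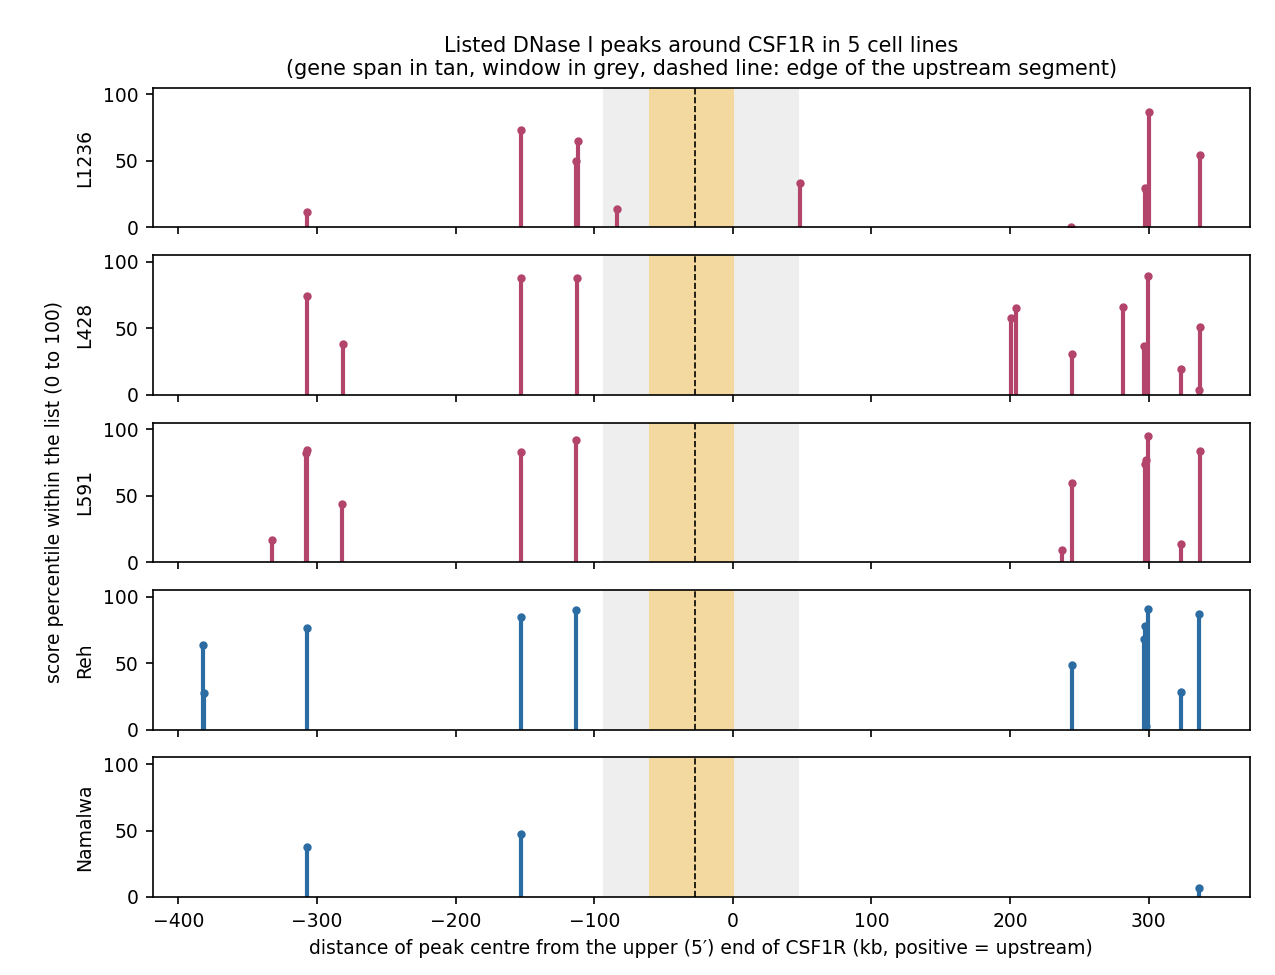
Each row is a cell line, and each line with a dot is a listed peak, placed by the distance of its centre from the upper end of CSF1R (x axis, kb) and with its score percentile within the list as height (y axis). No row has a peak over the gene (tan), and L1236 alone has one in the window (grey), at percentile 14.0.

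The region nearest to the gene that several lines shared lay on its lower side, at 149359661 to 149360660. The percentile of its highest-scoring peak was 49.7 in L1236, 88.2 in L428, 92.2 in L591 and 90.3 in Reh, and Namalwa had no peak there. It ranked in the upper part of 3 lists and near the middle of the L1236 list. L1236 had a second peak close by, at 149361411 to 149361770 and percentile 64.7, which no other line shared. The next region below, 149320161 to 149320690, was found in all 5 lines, at percentile 47.1 in Namalwa and, in the same order as above, 73.4, 88.1, 82.6 and 84.8 in the other lines. Farther off, the region at 149165531 to 149166190 was also found in all 5, at percentile 11.4 in L1236 and from 37.9 to 84.4 in the other lines.

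On the upstream side the shared regions lay farther from CSF1R. The nearest, 149717041 to 149717650, was 244 kb from the gene and was found in 4 lines, at percentile 0.456 in L1236, 30.3 in L428, 59.9 in L591 and 48.9 in Reh. The strongest, 149772091 to 149773160, stood at percentile 86.4 in L1236, 89.1 in L428, 95.2 in L591 and 90.6 in Reh, again without a Namalwa peak. Between the gene and the region at 149717041, the upper flank held the L1236 peak at 149521031 already described and peaks of other lines. There L428 alone had peaks at 149673261 to 149673620 and 149676911 to 149677330 (percentiles 57.4 and 65.6), and L591 alone had 1 at 149710321 to 149710560 (percentile 8.97). Upstream of CSF1R and within reach of the flank, therefore, no site was shared by lines closer than 244 kb.

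Low-ranking peaks were also listed in the flanks. In the upper flank the lowest score percentile was 2.60 in Reh, 6.56 in Namalwa, 0.456 in L1236, 3.23 in L428 and 8.97 in L591, with 1 peak in all for Namalwa. In the lower flank it was 27.8 in Reh, 37.9 in Namalwa, 11.4 in L1236, 38.0 in L428 and 16.8 in L591. These values do not show whether a weak site within CSF1R went unlisted. The lowest score per bp of any peak differed between lists, from 3.67 in Reh to 12.0 in L1236, and the threshold behind them is not given in the sources used here.

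The number of peaks per line in the window (1, 0, 0, 0 and 0) was set against all adjoining windows of 140 kb with at least 1 peak. Of 12564 such windows, 529 had the same 5 numbers (4.21%). All 529 were equally close to the CSF1R window in the percentile ranks of their peak numbers over the 5 lines, so none is named as most like it. Every Hodgkin line had more peaks than both non-Hodgkin lines in 12.0% of windows, and fewer in 0.979%, and the CSF1R window belonged to neither kind.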

How the data were processed

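DNase-seq peak lists of 5 cell lines were used. Per the submitters' processing notes, Bowtie 1.00 was the aligner and hg18 the build. Columns of the files name an elongation of reads to 146 bp and bins of 10 bp. The score in each deposited list is the authors' peak area, with no stated scaling to depth, and was used only as a rank within its list. Scores per bp only describe a list. Which program called the peaks, and at what threshold, is not given in the sources used here. The L1236 list lacks the mark qcTrimmed that the other 4 carry.

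Peaks counted as members when they overlapped the window by at least 1 bp. The rule for named regions covered those with peaks in at least 2 lines, any in the upstream segment and the highest-ranking peak of each line, and window regions were named in full. The flanks of 300 kb were chosen after the peaks had been seen, and regions there were named after their values had been seen. Members and lists were chosen with earlier results of these data known. Group differences had two-sided exact permutation tests with lines as units. These give the share of the 10 splits whose difference is at least as large as the observed one. Counts in adjoining windows, taken by peak centre, were tested on simulated lists with each peak planted inside a window. There 100.0% of 7675 counts were recovered. The CSF1R window itself was counted by overlap, which that test did not cover. A planned look at CSF1R pathway genes was not run without an hg18 annotation. Promoter sequences are from RefSeq (GRCh38.p14), where 2 entries matched CSF1R. Alternatives covered window edges, peak membership, list length, peak width, joining, each line left out and DNase I concentration. Python 3.11.15, numpy 2.4.6, pandas 2.3.3 and matplotlib 3.10.9 were used.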

Additional observations from a re-analysis of the deposited data

How the results depend on the processing

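The upstream segment held 0 peaks in each line, and the alternatives could not change this, since the empty stretch reaches far beyond the segment in every list. The difference in peaks in the window (0.333) became 0 with lists of equal length and when lists were cut to their upper 50%. It was also 0 in the lines given 12 U/ml, L591 and Namalwa, but L1236 is not among these, so that value was fixed beforehand. With 1 line per group, that setting did not test DNase I concentration. The difference in covered length (56.7 bp) was likewise 0 in each of these settings. The number of regions in L1236 alone was 0 in place of 1 with lists of equal length and with the upper 50%, since the peak ranks low. Leaving out each line in turn gave differences of 0 to 0.500 peaks and 0 to 85.0 bp, with the value of 0 coming from leaving out L1236, whose peak is the only one. A window 20 kb longer on each side took in the shared region below the gene and 2 further peaks of L1236 alone, so that the counts were 4, 1, 1, 1 and 0 in L1236, L428, L591, Reh and Namalwa (difference 1.50, exact permutation p = 0.6, and 417 bp, p = 0.3). The percentile of the L1236 peak, 14.0 by score, was 10.3 by width and 51.5 by score per bp. Windows with every Hodgkin line above both non-Hodgkin lines made up 11.9% when shifted. No paired analysis was possible because the labels give no replicate numbers that tie lines of different groups. The depth of the libraries is unknown, so a site too weak to be listed cannot be told apart from a closed one.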
